A study of Mus musculus with 142 samples.

Results

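The imprinted Dlk1-Meg3 domain of mouse chromosome 12 replicated early on both alleles, and the musculus allele replicated later than the CAST allele in every clone measured. The domain was taken as the 50 kb windows that lie within chr12:109000001-110300000 (mm10). These are 26 of the 49264 windows for which replication timing (RT) was given, and they hold the 5 member genes Dlk1, Meg3, Rtl1, Rian and Mirg. The rule used position only, not a measured value. Over the 26 windows the mean log2 ratio of early over late S phase signal, log2(E/L), was 0.932 ± 0.111 (SD, n = 53 clones) on the musculus allele and 1.14 ± 0.0814 on the CAST allele. A higher value means earlier replication. The difference, musculus minus CAST, was -0.215 ± 0.0869, and its sign was the same in 53 of 53 clones. For the member genes it ran from -0.174 at Dlk1 to -0.299 at Mirg.

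The Dlk1-Meg3 domain is a cluster of imprinted genes, which are expressed from 1 parental chromosome only. Dlk1, Rtl1 and Dio3 are expressed from the paternally inherited chromosome, whereas the noncoding RNAs Meg3, Rian and Mirg are expressed from the maternally inherited one. A differentially methylated region between Dlk1 and Meg3 controls this choice. The cluster also carries many small RNA genes, and its imprinting state is known to vary between pluripotent stem cell lines. Replication timing is the order in which chromosome segments are copied during S phase, and active, gene-rich chromatin tends to be copied early.

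RT was measured by E/L Repli-seq in F121-9 mouse embryonic stem cells (mESCs), an F1 castaneus x musculus hybrid line grown in 2i and LIF, in which reads are assigned by their polymorphisms to the allele of one or the other mouse subspecies, named musculus here, genome1 of the deposited table, and CAST for castaneus, genome2. BrdU-labelled cells were sorted by DNA content, and the DNA copied in early and in late S phase was sequenced. Profiles of 66 libraries from 53 clones of 26 cell lines were used, with repeat libraries of a clone averaged, so that n counts clones. All clones carry CRISPR deletions at the Dppa2/4 locus on chromosome 16, and none removes sequence of chromosome 12. The letters A, B and C name 3 early replication control elements there, OSN names Oct4, Sox2 and Nanog binding sites within an element, TSS names a transcription start site, and Z names a further OSN site. The lines deleted in C alone were COSN1, COSN1.2.8k, COSN12, COSN123, CL20k, CR11.8k, CR13.4k, CR14.6k and CTSS. The other lines were A.COSN12, A.COSN123, A.B.COSN123, A.BOSN1.COSN123, A.BOSN12.COSN123, A.BOSN12.BTSS.COSN123, AOSN.COSN12, AOSN.COSN123, AOSN.B.COSN123, AOSN.BOSN12.COSN123, BOSN1.COSN123, BOSN12.COSN123, BTSS, BTSS.CTSS, ATSS.BTSS.CTSS, Z.AOSN.COSN123 and Z.B.C. No line without a deletion was used here, and 7 lines were 1 clone each. In these cells strain and parent of origin coincide, so their parts in a difference between musculus and CAST cannot be told apart. The deletion lay on the musculus allele, with none named on CAST, in 43 clones and on CAST alone in 2. In 8 clones the musculus allele carried it and CAST was labelled with a part of it, B, ATSS or BTSS. All clones descend from F121-9, many of them through COSN123, so p-values measure how repeatable a value was among related clones. The depth behind each value is unknown, since only ratios were used.

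The small RNA genes of the domain are placed unevenly. The RefSeq table of GRCm38.p6, the assembly also called mm10, holds 58 miRNA hairpins within the domain, 54 of them on the plus strand, and GENCODE vM21 lists 23 snoRNA genes there. Of the hairpins, 37 fall in the window chr12:109700001-109750000, which holds Mirg, and 16 in chr12:109550001-109600000, where Meg3 ends and most of Rtl1 lies. Of the snoRNAs, 16 fall in chr12:109650001-109700000 and 7 in the window before it, both of which hold Rian. The mature sequences below, 5′ to 3′ with the seed (bases 2 to 8) in capitals, are shown because they come from the windows whose allele timing is described next. In order along the chromosome, miR-127-3p lies antisense to Rtl1, the next 6 lie in the window of Mirg, and miR-1247-5p lies beside Dio3.
miR-127-3p: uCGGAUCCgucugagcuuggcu
miR-379-5p: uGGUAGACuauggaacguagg
miR-379-3p: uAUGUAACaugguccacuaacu
miR-411-3p: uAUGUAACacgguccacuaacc
miR-1193-5p: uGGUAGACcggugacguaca
miR-134-5p: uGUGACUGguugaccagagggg
miR-410-3p: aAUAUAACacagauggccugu
miR-1247-5p: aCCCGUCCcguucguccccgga
Among the 113 mature sequences of the domain 104 different seeds were found, and 9 seeds were shared, each by 2 miRNAs. Of those shown, miR-379-5p shares its seed with miR-1193-5p, and miR-379-3p shares its seed with miR-411-3p. The abundance of these RNAs was not measured here.

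The first question was where along the domain the alleles differed. The CAST allele was earlier in a run of 24 adjoining windows, chr12:109100001-110300000, each with an adjusted p of at most 0.05 by limma with Benjamini-Hochberg adjustment over 44259 windows. The share of all windows earlier on CAST at that threshold was 33.7%, against 24 of 26 in the domain, and 0 of 26 were earlier on musculus, against 27.4% of all windows. With a difference of at least 0.25 also required, 8 of the 26 windows were called earlier on CAST and 0 earlier on musculus, where the shares of all windows were 10.7% and 8.83%. Since the profiles were smoothed over 300 kb, neighbouring windows are not independent measurements, and the run counts as 1 stretch. Runs of at least 24 such windows were found 132 times on the 19 autosomes, out of 1891 runs in all. Of these, 94 had a mean difference at least as large as the -0.23 of this run, itself included. Long stretches of this size are therefore not particular to the domain.

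**Figure D1:**
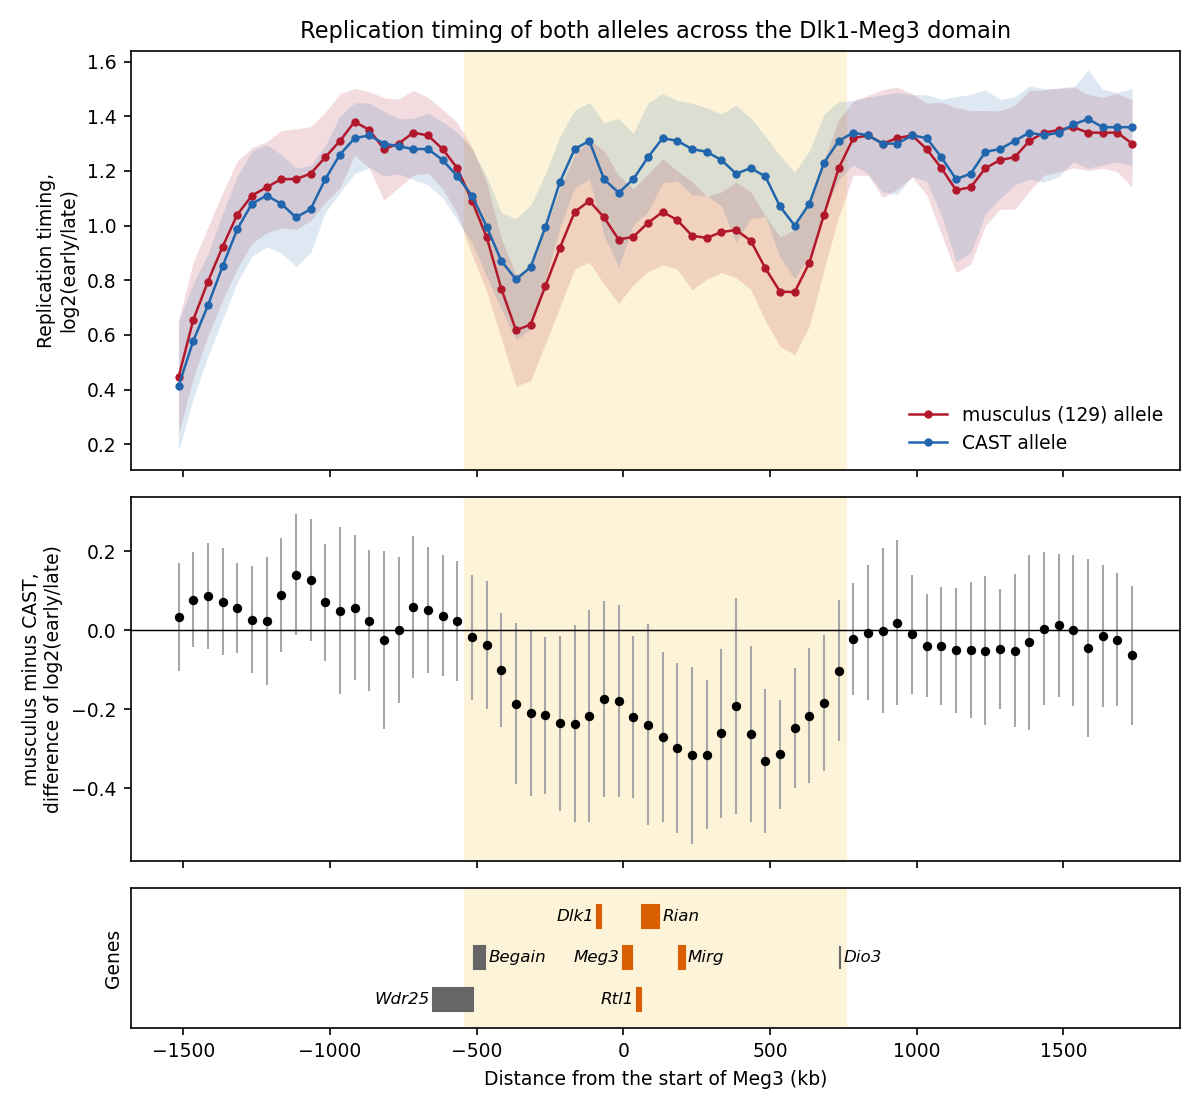
Mean log2(E/L) of the musculus and CAST alleles per 50 kb window with the SD over clones as bands (top), the difference musculus minus CAST with SD bars (middle) and the protein-coding and member genes (bottom; members in orange), against distance from the start of Meg3 in kb. The shaded interval is the domain, within which the difference fell to -0.332, while both flanks stayed between -0.0637 and 0.141.

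The difference began between Begain and Dlk1 and ended at Dio3. In the 2 windows of Wdr25 and Begain at the proximal edge, the means were -0.0181 ± 0.158 (SD, n = 52) and -0.0381 ± 0.162 (SD, n = 53), with adjusted p by limma of 0.506 and 0.143. The difference was then -0.101 in chr12:109100001-109150000 and reached -0.237 in chr12:109350001-109400000, within a stretch that holds no annotated protein-coding gene. Its mean was smaller around Dlk1 and Meg3, at -0.174 and -0.179, and larger again towards Mirg. Whether the difference varied between windows of the domain was not tested. The largest values were -0.332 ± 0.183 (SD, n = 53) in chr12:110000001-110050000 and -0.317 ± 0.225 (SD, n = 51) in chr12:109750001-109800000. Neither of these windows holds a protein-coding gene, and the former overlaps the lincRNAs Gm34667 and Gm34719. In the most repeatable window, chr12:110050001-110100000, 52 of 53 clones had the later musculus allele, with a mean of -0.314 ± 0.138. At the distal edge the difference was -0.102 in the window of Dio3 and -0.0211 in the next window beyond the domain.

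Both alleles followed the same outline along the domain. Window means ran from 0.617 to 1.21 on musculus and from 0.803 to 1.32 on CAST, against a median over all windows of -0.121 and -0.0959. The latest window was the same on both alleles, chr12:109150001-109200000, in the stretch without protein-coding genes between Begain and Dlk1. A further trough lay before Dio3, at 0.757 on musculus and 1.0 on CAST in chr12:110100001-110150000. Soft-masked repeats filled 74.3% of the bases of the latest window, against a median of 24.4% for the domain and 31.4% for all windows. The domain was GC-rich, with a median of 46.8% GC per window against 41.4% over 48020 windows, and had 12.3 CpG per kb against 7.74.

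The member genes are given in their order along the chromosome. Each gene takes the mean of the 50 kb windows it overlaps. A value therefore describes the neighbourhood of a gene, and Meg3 shares a window with Rtl1 as Rtl1 does with Rian.

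Dlk1, at chr12:109452823-109463336 on the plus strand, encodes a transmembrane protein of the Notch ligand family that restrains differentiation. Its musculus log2(E/L) had a lowest value of 0.178, a median of 1.04 and a highest value of 1.48 over 53 clones, and its CAST log2(E/L) ran from 0.596 through a median of 1.2 to 1.65 over 49. The ranges of the alleles overlapped widely. Within clones, the musculus allele was later in 37 of 49, by a mean of -0.174 ± 0.248 (SD; limma, adjusted p = 1.06e-05). The lowest musculus value and the largest difference, -1.06, belonged to clone A1 of ATSS.BTSS.CTSS, which was measured in 1 library. Of the 5 member genes, Dlk1 had the smallest mean difference and the largest spread among clones.

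Meg3, at chr12:109541001-109571726 on the plus strand, is a long noncoding RNA gene just downstream of the imprinted control region. On musculus its lowest, median and highest values were 0.464, 0.97 and 1.28, and on CAST 0.494, 1.17 and 1.56, each over 53 clones. The musculus allele was later in 46 of 53 clones, with a mean difference of -0.197 ± 0.205. In its 2 windows limma gave adjusted p of 3.7e-06 and 5.26e-10. The lowest CAST value came from clone A8 and the lowest musculus value from clone A1 of the same cell line, ATSS.BTSS.CTSS.

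Rtl1, at chr12:109589193-109600330 on the minus strand, is a retrotransposon-derived gene needed for the placenta, and is targeted by miRNAs transcribed antisense to it. Its values were 0.669, 0.978 and 1.35 on musculus and 0.804, 1.21 and 1.57 on CAST (lowest, median and highest, n = 53). The musculus allele was later in 46 of 53 clones, by a mean of -0.229 ± 0.206.

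Rian, at chr12:109603940-109661716 on the plus strand, is a noncoding RNA gene whose windows hold the 23 snoRNAs of the domain. Its lowest, median and highest values were 0.671, 1.02 and 1.36 on musculus and 0.764, 1.28 and 1.79 on CAST. The difference was -0.254 ± 0.228, and 48 of 53 clones had the later musculus allele. Clone A1 of ATSS.BTSS.CTSS had the lowest CAST value and was the clone farthest in the other direction, with musculus earlier by 0.487.

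Mirg, at chr12:109729764-109749460 on the plus strand, is a noncoding RNA gene in the window with the most miRNA hairpins. Of the miRNAs shown above, miR-134-5p and miR-410-3p lie within its annotated bounds. The others of its window, miR-379-5p, miR-379-3p, miR-411-3p and miR-1193-5p, lie before its annotated start. On musculus its values were 0.7, 1.0 and 1.39 over 53 clones, and on CAST 0.972, 1.31 and 1.8 over 51. The musculus allele was later in 48 of 51 clones, by a mean of -0.299 ± 0.216 (SD; limma, adjusted p = 7.39e-14), the largest difference of the 5 genes. The lowest musculus values of Rtl1, Rian and Mirg all belonged to clone 2-33 of COSN1. At all 5 genes together, 48 clones had values on both alleles, and the musculus allele was later at every one of the 5 in 32 clones and earlier at every one in 0.

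**Figure D2:**
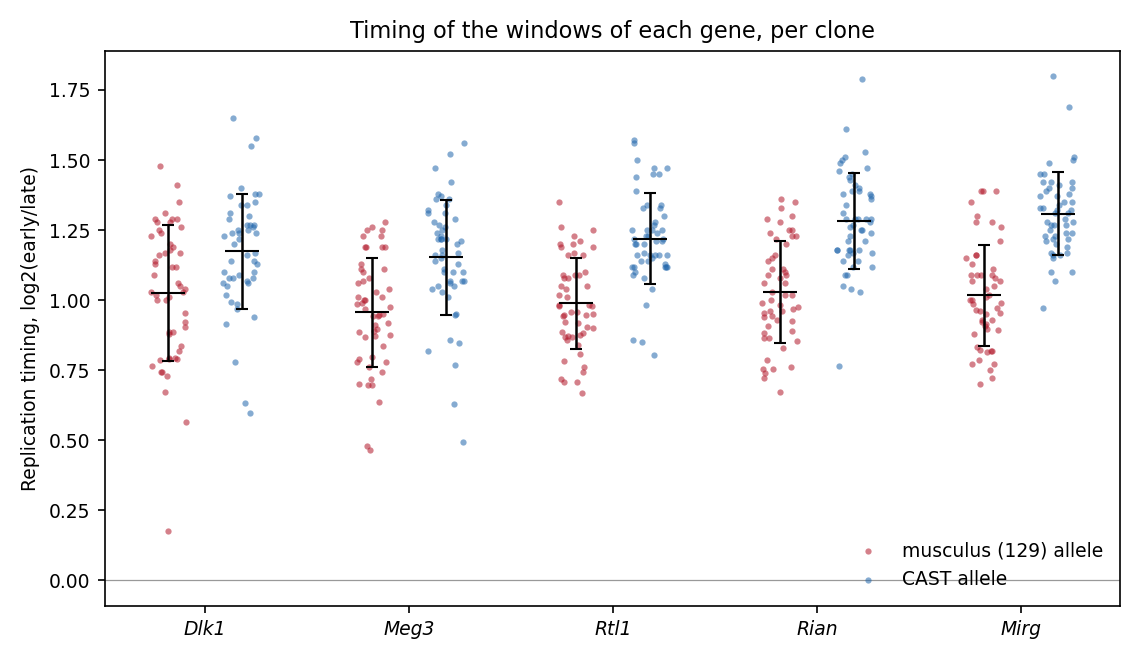
Replication timing (log2(E/L)) of the windows of the 5 member genes on the musculus and CAST alleles, with 1 point per clone and the mean and SD as bars. All points lie above 0, and the CAST mean of each gene lies above its musculus mean, with overlapping clouds.

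The order of the genes by timing was weakly resolved. On musculus the means ran from Rian and Dlk1, both 1.03, through Mirg at 1.02 and Rtl1 at 0.989 to Meg3 at 0.957. No neighbours in that order had a mean difference past the threshold (adjusted p from 0.232 to 0.922, permutation test). On CAST the order was Mirg at 1.31, Rian at 1.28, Rtl1 at 1.22, Dlk1 at 1.17 and Meg3 at 1.15. Of the 8 neighbour pairs compared, 1 passed, Rian over Rtl1 on CAST, by 0.0655 ± 0.0963 in 40 of 53 clones (two-sided sign-flip permutation test, adjusted p = 8e-05). Meg3 was the latest of the 5 genes on both alleles, but on neither did it differ past the threshold from the gene before it.

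Dio3, Begain and Wdr25 are the other protein-coding genes of the domain. Dio3, at chr12:110279068-110281097, encodes the deiodinase that inactivates thyroid hormone and is the distal imprinted gene of the cluster. It was the earliest gene described here on musculus, at 1.21 ± 0.177, with 1.31 ± 0.143 on CAST, and musculus was later in 35 of 53 clones (limma, adjusted p = 0.000241). Begain, at chr12:109032187-109068217, encodes a synaptic scaffold-associated protein and had 1.03 ± 0.193 on musculus and 1.06 ± 0.17 on CAST. For Wdr25 the window inside the domain had 1.09 ± 0.196 and 1.11 ± 0.172. Neither of these proximal genes had a window past the threshold within the domain.

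Averaged over the domain, the difference was found in all clones, with a lowest value of -0.437 in the only clone of AOSN.BOSN12.COSN123, a median of -0.209 and a highest value of -0.0196 in clone B4 of Z.AOSN.COSN123. A two-sided sign-flip permutation test over the 53 clones gave p = 1e-05, the smallest that 100000 resamples can give. In 11 clones every window with values on both alleles was later on musculus, and the fewest later windows in any clone were 13 of 26. The SD between libraries of the same clone, from 24 libraries of 11 clones, was 0.0767 for the difference, against 0.0869 between clones. It was 0.0885 on musculus and 0.0376 on CAST, against SDs of 0.111 and 0.0814 between clones. The clones named for extreme values of the domain and of the member genes had 1 library each. In them, variation between libraries cannot be told from a trait of the clone. Across clones the allele ranges overlapped, since 21 clones had a musculus mean above the lowest CAST mean of 0.967, whereas within each clone CAST was earlier.

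The domain mean had the same sign whichever allele carried the chromosome 16 deletion. In the clones with the deletion on musculus and none named on CAST the mean was -0.211 ± 0.0871 (SD, n = 43). With a part of the deletion also on CAST the mean was -0.24 ± 0.0883 (SD, n = 8). The 2 clones with the deletion on CAST alone, where musculus is unmodified, had -0.268 (CTSS clone C4) and -0.11 (CR11.8k clone 50). At the member genes these clones differed from each other. CTSS clone C4 had -0.0306 at Dlk1, -0.0311 at Meg3, -0.111 at Rtl1, -0.253 at Rian and -0.503 at Mirg. CR11.8k clone 50 had 0.0419, -0.00207, 0.0444, 0.0148 and -0.0479 in the same order, so its difference came from windows outside the member genes. With 2 clones no test was made.

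**Figure D3:**
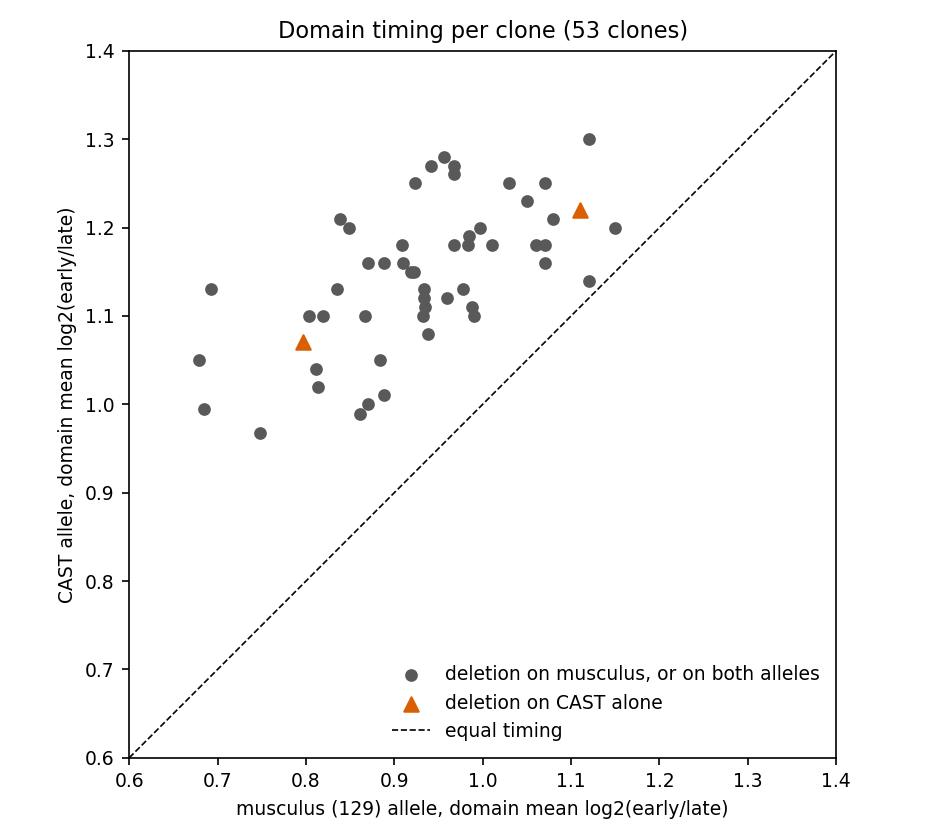
Mean log2(E/L) over the domain on the musculus allele (horizontal) and the CAST allele (vertical) in each of 53 clones, with the line of equal timing. All points lie above the line, the 2 clones with the deletion on CAST alone (triangles) included.

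The next question was whether the deletions went with a different timing of the domain. The difference musculus minus CAST passed the threshold of limma's F-test between the 19 cell lines with more than 1 clone in 0 of 26 windows, where 6.89% of all windows did. At an unadjusted p of at most 0.05 there were 2 such windows of 26, against 24.0% of all windows, and the lowest adjusted p was 0.0839, in the window chr12:109650001-109700000 of Rian. All 26 cell line means were negative, from -0.437 to -0.109. The mean timing of both alleles differed between cell lines in 14 of 26 windows, against 68.1% of all windows. The 14 windows included those of Dlk1 and the start of Meg3 and the 8 windows of chr12:109850001-110250000, but none from chr12:109550001-109850000, which holds Rtl1, Rian and Mirg. Over all 26 lines, cell line means ranged from 0.693 to 1.11 on musculus and from 1.03 to 1.27 on CAST. Both musculus extremes were lines of 1 clone that this test left out, AOSN.BOSN12.COSN123 and CR11.8k. Among the 19 lines tested, the musculus means ranged from 0.738 in CTSS to 1.09 in CR13.4k. Each cell line had libraries named in 1 of 6 styles in the labels, so cell line and naming style cannot be told apart in this test.

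Compared with its surroundings, the domain had the larger allele difference on both sides. Over the 1 Mb proximal to it, with 14 protein-coding genes, the mean difference was 0.056 ± 0.0646 (SD, n = 53), and over the 1 Mb distal to it, with 15 protein-coding genes, -0.0247 ± 0.075. The proximal flank thus had a difference of its own in the opposite direction. It reached 0.141 in chr12:108400001-108450000 (limma, adjusted p = 5.35e-08), where musculus was later in 4 of 53 clones. The comparison with that flank includes this difference. Domain minus flank was -0.271 ± 0.106 on the proximal side, negative in 53 of 53 clones, and -0.19 ± 0.113 on the distal side, negative in 51 of 53 (two-sided sign-flip permutation test, adjusted p = 1e-05 for each, over 4 region comparisons). The 2 exceptions were clone A1 of ATSS.BTSS.CTSS and clone B4 of Z.AOSN.COSN123. The CAST allele of the domain, at 1.14, lay between its proximal flank at 1.08 and its distal flank at 1.31. The musculus allele, at 0.932, was below both flanks, at 1.13 and 1.29.

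Averaged over windows, the difference was also larger than in 2 other imprinted clusters. The windows from H19 and Igf2 to the Kcnq1 cluster on chromosome 7 had 0.733 ± 0.152 on musculus and 0.692 ± 0.151 on CAST, with a difference of 0.041 ± 0.068. That mean joined opposite signs. At the starts of H19 and Igf2 the difference was -0.118 and -0.121, and at those of Ascl2 and Kcnq1 0.138 and 0.093. The windows from Ube3a to Mkrn3 around Snrpn were late on both alleles, at -1.16 ± 0.139 and -1.1 ± 0.154, with a difference of -0.0523 ± 0.0973. Signs at the gene starts were mixed there too. The means were -0.088 at Snrpn (n = 52), -0.0474 at Ube3a (n = 43) and -0.0222 at Ndn (n = 35). They were 0.0245 at Magel2 (n = 41) and 0.0453 at Mkrn3 (n = 45). The domain minus the Igf2 to Kcnq1 windows was -0.256 ± 0.111 (negative in 50 of 53 clones). Against the Ube3a to Mkrn3 windows it was -0.162 ± 0.129 (negative in 49 of 53). The adjusted p was 1e-05 for each by the same permutation test.

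**Figure D4:**
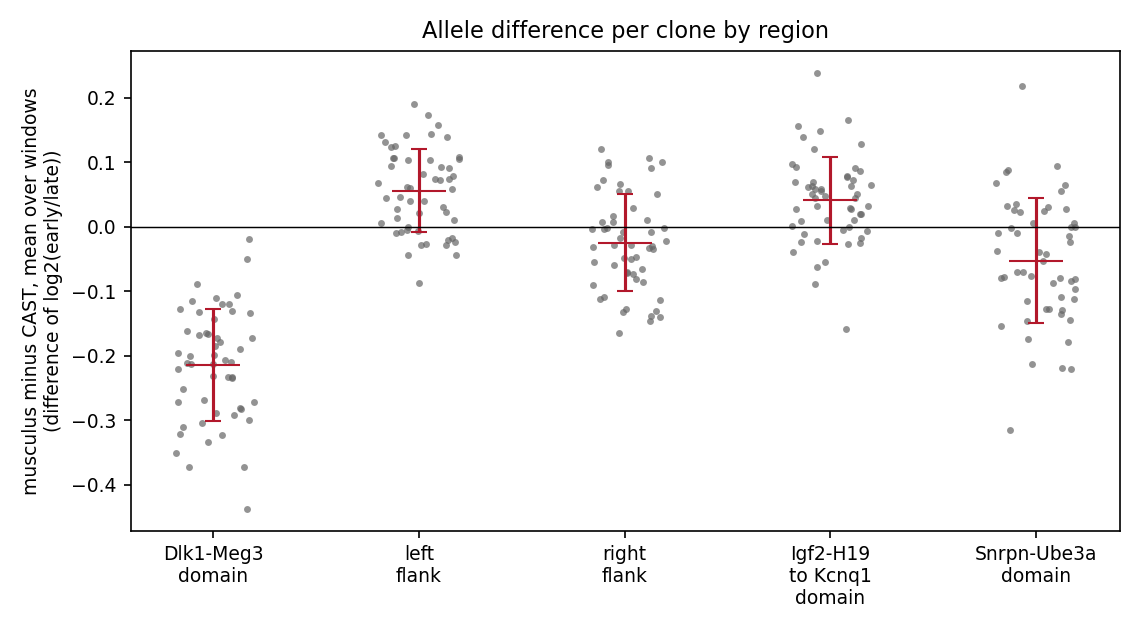
Difference musculus minus CAST in log2(E/L), averaged over the windows of each region, with 1 point per clone (n = 53) and the mean and SD as bars. The Dlk1-Meg3 domain lies below 0 in all clones, while the points of its flanks and of the other imprinted domains lie on both sides of 0.

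Of a list of 49 imprinted genes outside the members, 48 had a tested window at their start. The CAST allele was earlier by at least 0.25 at 6 of these (12.5%) and the musculus allele at 2 (4.17%), near the shares of 10.7% and 8.83% for all windows. The median difference was -0.0548, against -0.0109 for all windows. The 6 genes were Slc22a2 and Slc22a3, organic cation transporters next to Igf2r, Asb4 and Calcr of the Peg10 cluster, the amino acid transporter Slc38a4 and the proteoglycan gene Dcn, with differences from -0.282 at Dcn to -0.688 at Slc22a3. The 2 genes earlier on musculus were Plagl1 at 0.258, a zinc finger gene, and Nap1l5 at 0.308. At the adjusted p alone, the CAST allele was earlier at 24 of the 48 genes (50%), against 33.7% of all windows, and the musculus allele at 10 (20.8%), against 27.4%. The genes are not separate measurements, since some take the same window, as Peg3 and Usp29 or Gnas and Nespas do. The list also includes Begain and Dio3 of the domain, and Dio3 is among the 24. Whether these shares differ from those of all windows was not tested.

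Across clones the alleles of the domain moved together. The musculus and CAST means had a Pearson r of 0.624 and a Spearman rho of 0.627 over 53 clones (permutation p = 1e-05 for each, adjusted p = 3e-05 over 3 relations), and r was 0.575 without the 2 clones farthest from the median musculus mean. Both alleles of a clone come from the same libraries. Within the naming styles of 6 or more clones r was between 0.593 and 0.851, though after adjustment Pearson's p passed the threshold only in 1 style of 12 clones, with adjusted p = 0.00195. The allele difference of the domain had an r of 0.153 with that of the windows from Dppa2 to Morc1 at the deleted locus (rho 0.0894, n = 52, permutation p = 0.28 and 0.527, adjusted p = 0.42 and 0.791). Without the 2 farthest clones r was 0.112. Its r with the percent of windows that had a value in a clone was -0.0668 (rho -0.0292, n = 53, permutation p = 0.637 and 0.835, adjusted p = 0.637 and 0.835), and -0.0132 without the 2 farthest clones. Within naming styles neither of these relations passed the threshold.

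The genes beyond 5 Mb of the domain whose allele difference varied most like that of the domain over clones were Nfam1 on chromosome 15 (Pearson r = 0.564, n = 36), Lpcat2 on chromosome 8 (0.553, n = 53), F13a1 on chromosome 13 (0.547, n = 51), Ros1 on chromosome 10 (0.544, n = 53) and Disp1 on chromosome 1 (0.544, n = 53). These are the highest of all windows with a protein-coding gene start, each measured in the same libraries as the domain, and are given as a description.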

How the data were processed

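E/L Repli-seq was analysed in F121-9 mESC clones with deletions at the Dppa2/4 locus. The authors trimmed reads (the submitters' processing notes name Trim Galore, cutadapt and bedtools), aligned them with bowtie2 to N-masked mm10, split them by allele with SNPsplit, removed duplicates, counted them in 50 kb windows, and scaled, quantile-normalized and loess-smoothed the ratios over 300 kb; versions are not given in the sources used here. The deposited values are log2 ratios of early over late signal per allele, in 138 columns, all used. Quantile normalization removes differences in overall distribution, and smoothing blurs edges. Per allele profile, 73.8% to 93.8% of windows and 80.8% to 100% of domain windows had a value. In 10 clones a chromosome other than 12 had no value on 1 allele. The labels name 5 further libraries, not analysed here.

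Repeat runs (3 clones, r from 0.955 to 0.963), then libraries, were averaged per clone. Groups came from the sample titles. The difference musculus minus CAST was tested per window with limma 3.58.1 (R 4.3.3), intercept only, in windows with a difference in at least 50% of clones, and between cell lines by limma's moderated F-test, with Benjamini-Hochberg adjustment over all windows at 0.05. Means over windows were tested by two-sided sign-flip permutation with 100000 resamples. These procedures were tested on simulated data. Gene positions are from GENCODE vM21 on GRCm38. Named genes were the members, the other protein-coding and imprinted genes of the domain, called genes of an imprinted list and the 5 genes most correlated with the domain. The members and lists were chosen with earlier results of these data known. Alternatives covered the unit, filters, size limit, centring, clones used, naming style, replicate number and flank width.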

Additional observations from a re-analysis of the deposited data

How the results depend on the processing

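The sign of the domain mean was the same under each alternative run, with values from -0.177 to -0.285. Leaving out each clone in turn gave -0.218 to -0.21, and for the other region comparisons -0.276 to -0.267 (proximal flank), -0.194 to -0.185 (distal flank), -0.261 to -0.251 (Igf2-H19 to Kcnq1) and -0.169 to -0.156 (Snrpn-Ube3a). The windows called then numbered 8 to 10, and 24 at adjusted p alone. Under the other alternatives, but for the size limit and the numbered libraries below, 6 (median over all windows subtracted) to 12 (libraries as units) windows were called, and 24 at adjusted p alone. Within the 1 naming style of 4 clones the mean was -0.191 with an exact p of 0.125, the smallest that 4 clones allow. With a size limit of 0.5, 0 windows of the domain were called, against 5.52% of all windows in either direction (2444 in place of 8657). The labels number 24 libraries. Without the replicate block, an alternative added after seeing the data, these gave 17 called windows (20.6% of all windows), 24 at adjusted p alone (51.2%) and a domain mean of -0.271. With the replicate block they gave 11 (23.2%), 22 (37.2%) and -0.249. The block weighted each replicate number equally, although numbers 3 and 4 had 1 library each, both of COSN123 clone A10. In both settings libraries of the same clone counted as separate units. Over all windows, 27019 passed the adjusted p alone with all clones, 22329 with the numbered libraries without the block and 13900 with it. Libraries with the same number did not deviate together (median r 0.00162 over 110 pairs of different clones), so the numbers do not pair samples. Between cell lines, 1 window of 26 passed for the allele difference with a value required in 90% of clones (12.0% of all windows), and 1 with libraries as units (9.95%). The correlation with the percent of windows that had a value changed sign with libraries as units, to 0.0381 (p = 0.761, permutation test). Apart from leaving out a clone, 38 of 40 alternative values with a test kept direction and side of the threshold, and 18 of 22 alternative counts were within 1.5 times the main count. The unknown depth limits what can be said of single windows.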
